A study of Saccharomyces cerevisiae and Neurospora crassa and Schizosaccharomyces pombe with 13 samples.

Results

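Neurospora crassa, a filamentous fungus, carries both of the classical kinds of silent chromatin, and the 10 genes described here encode the enzymes and binding proteins that build them. They were chosen by identifier in the deposited N. crassa gene annotation, and 10 of 10 identifiers were found among its 9730 genes. Of these, 7 belong to the constitutive, DNA-methylating pathway (dim-2, dim-5, dim-7, dim-9, dim-8, cul4 and hpo) and 3 to the facultative pathway of Polycomb repressive complex 2, or PRC2 (set-7, eed and suz12). The file carries gene identifiers without symbols, so the names are those given with the choice of genes and could not be checked in the file.

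In the constitutive pathway, DIM-5 methylates lysine 9 of histone H3 over AT-rich, repeat-derived DNA. HP1, the product of hpo, binds that mark and brings in DIM-2, the DNA methyltransferase. DIM-5 works in a complex with DIM-7, DIM-9, the DDB1 protein DIM-8 and the cullin CUL4. In the facultative pathway, SET-7 methylates lysine 27 of histone H3 as the catalytic subunit of PRC2, together with the subunits EED and SUZ12, over domains that hold genes. Mutants of the dim ("defective in methylation") genes lose DNA methylation, and Saccharomyces cerevisiae has neither pathway.

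The study prepared nucleosome footprints by MNase-seq, in which micrococcal nuclease removes the DNA between nucleosomes, from 13 libraries. The 2 N. crassa libraries came from germinated conidia (asexual spores) of a wild-type strain, grown for 3.5 h until over 70% had germinated, fixed for 10 min in 1% formaldehyde and processed by the rapid protocol. The other 11 comprise 10 S. cerevisiae libraries and 1 of Schizosaccharomyces pombe. Footprints and read depth were not analysed here, so the values below are lengths and distances of gene models, the frame on which the footprints of N. crassa can be laid. An annotation has no replicates, and no difference between genes was tested; a percentile gives the place of a gene among all annotated genes that have the quantity.

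Most of the machinery genes were longer than the median gene, and most had more introns than it, though per coding length most had fewer. Their coding lengths ran from 798 to 4833 bp with a median of 2688 bp, against a median of 1260 bp over all genes, and 8 of the 10 lay above that median. Coding regions over 2000 bp belonged to 7 members, against 23.4% of all genes, and coding regions over 4000 bp to 2 members, dim-2 and set-7, against 3.47%. Each member had exactly 1 transcript (several transcripts: 0 of 10, against 9.23% of all genes) and at least 1 intron (10 of 10, against 81.6%), so single-exon models numbered 0 of 10, against 18.4%. Models of 6 or more exons numbered 2, dim-9 and eed, against 5.33%. The 10 models held 24 introns, a mean of 2.4 per gene, against 1.75 over all genes, and a median of 2, against 1; 7 of the 10 lay above the median of all genes. Per 1000 coding bp the members had a median of 0.893 introns, against 1.12 over all genes, and 3 of the 10 lay above that value. The number of introns rose less than in proportion to coding length, with a mean of 1.46 among genes within 10% of the 798 bp of hpo and 2.41 within 10% of the 4833 bp of set-7. Genes of like coding length were taken in this way for each member. Against these, 7 of the 10 lay above the middle of the distribution of intron number, with ties counted at their midpoint. The highest were eed at percentile 94.2, dim-9 at 92.0 and hpo at 88.5. Of the 7, dim-8, set-7 and suz12 had 2 introns, which equalled the median of their like-length genes. The means of those genes were higher, at 2.02, 2.41 and 2.08.

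**Figure D1:**
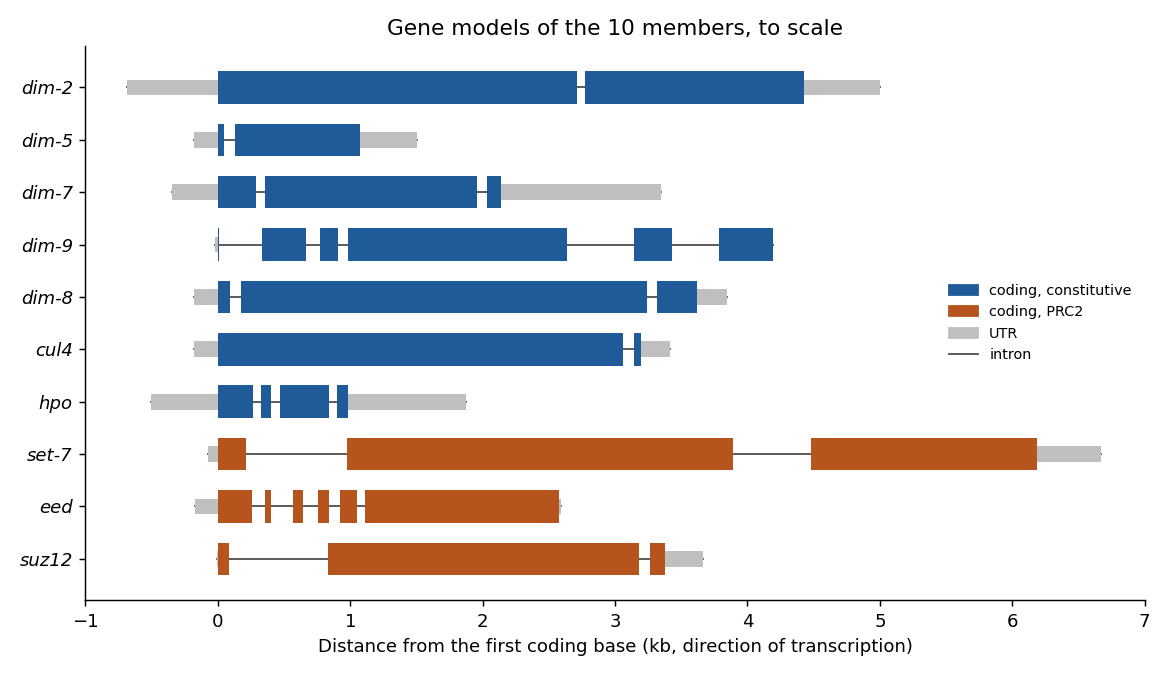
Exons and introns of the 10 genes, drawn to scale in kb from the first coding base in the direction of transcription; thick bars are coding, thin grey bars are UTRs with the stop codon, and lines are introns. The constitutive genes (blue) have mostly short introns except dim-9, while set-7 and suz12 (orange) carry first introns of 765 and 742 bp.

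The DNA methyltransferase gene dim-2 (NCU02247) occupied positions 3189797 to 3195483 of sequence 7, on the plus strand. Its coding length of 4362 bp, or 1454 residues, was at percentile 97.4 of all genes. A single intron of 64 bp divided this length into pieces of 2712 and 1650 bp, so the gene had 0.229 introns per 1000 coding bp. Among the 163 genes within 10% of its coding length the mean was 2.18 introns. The 5' UTR measured 688 bp (percentile 84.2) and the 3' UTR 570 bp, and dim-2 thus had the longest 5' UTR of the 10 members.

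The histone H3 lysine 9 methyltransferase gene dim-5 (NCU04402) was one of the 2 short genes of the set. It ran over 1685 bp on the minus strand of sequence 4, from 3480589 to 3482273, and encoded 331 residues in 993 bp (percentile 36.4). Its first coding piece was 48 bp long, followed by an intron of 85 bp, and the second exon held 945 bp, 95.2% of the coding bases. The 5' UTR was 181 bp and the 3' UTR 423 bp.

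The other short gene was hpo (NCU04017), which encodes HP1 and is found on sequence 6, plus strand, between 2175752 and 2178135. Its coding length of 798 bp (266 residues) was the lowest of the set, at percentile 27.2. The coding region was interrupted by 3 introns of 59, 67 and 58 bp, giving 3.76 introns per 1000 coding bp, the highest value of the set. Genes within 10% of its coding length had a mean of 1.46 introns. Most of the gene was untranslated: the 5' UTR of 507 bp and the 3' UTR of 892 bp made up 58.7% of the span, and the coding bases 33.5%, at percentile 10.4.

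The genes of the complex around DIM-5 differed among themselves. For dim-7 (NCU04152), whose product brings DIM-5 to chromatin, the annotation gave 1998 coding bp (666 residues) between 5011283 and 5014974 of sequence 5, minus strand, with introns of 68 and 77 bp. Its 3' UTR of 1200 bp stood at percentile 96.5 and was the longest of the 10 members; 3' UTRs over 1000 bp occurred in 5.07% of all genes. The DDB1 gene dim-8 (NCU06605), on sequence 4 between 1782124 and 1786149, plus strand, comprised 3474 coding bp (1158 residues), introns of 80 and 68 bp, and 88.4% of its coding bases in the second exon. The cullin gene cul4 (NCU00272) took positions 3248301 to 3251897 of sequence 3, minus strand, and had 3117 coding bp (1039 residues). Its single intron of 78 bp came after 98.2% of the coding bases, and 3062 bp were thus read without interruption from the start codon. The UTRs of dim-8 and cul4 were alike in length, with 5' UTRs of 177 and 178 bp and 3' UTRs of 224 and 221 bp.

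The model of dim-9 (NCU01656) stood apart from the other genes of that complex. DIM-9 is a WD40-repeat protein of the kind that links DDB1 to its partners. The gene ran over 4220 bp on the minus strand of sequence 2, from 2791337 to 2795556, with 2829 coding bp (943 residues) in 6 exons. Its 5 introns measured 321, 106, 79, 510 and 348 bp in the order of transcription and together made up 1364 bp, or 32.3% of the span. Of the 277 genes with 5 introns, 2 had more intron bases. The first exon was 35 bp long and held 11 coding bp, the 5' UTR was 24 bp (percentile 1.72 of annotated 5' UTRs), and no 3' UTR was annotated, so the model ended at its stop codon.

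Of the PRC2 genes, set-7 (NCU07496), which encodes the histone H3 lysine 27 methyltransferase, was the longest of all 10 members. It spanned 6740 bp on the minus strand of sequence 1, from 408524 to 415263, at percentile 98.7. The coding length of 4833 bp (1611 residues) was interrupted by 2 introns of 765 and 588 bp. Among the 16983 introns counted, from 1 transcript per gene, 74 were longer than the first of these and 171 longer than the second. Of the 2306 genes with 2 introns, 2 had more intron bases than the 1353 bp of set-7, and their median was 171 bp.

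The suz12 gene (NCU05460), which encodes a non-catalytic core subunit of PRC2, had the same kind of long first intron. It ran on the minus strand of sequence 2 from 1672115 to 1675786 and encoded 849 residues in 2547 bp. Its first intron, after 88 coding bp, measured 742 bp, and 82 introns were longer when 1 transcript per gene was counted. The second intron, of 87 bp, came after 95.6% of the coding bases. Its 5' UTR of 6 bp was the shortest of the 10 (percentile 0.431), so the annotated start lay almost at the start codon.

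The third PRC2 gene, eed (NCU05300), encodes the WD40-repeat subunit, which in animals binds methylated lysine 27. It ran from 5413342 to 5416107 on sequence 4, plus strand, and had 2055 coding bp (685 residues). Its 5 introns of 95, 166, 117, 84 and 61 bp all fell within the first 28.6% of the coding bases. The exons between these introns were 43 to 126 bp long. The last exon carried 1467 coding bp, 71.4% of the total. With 5 introns, eed exceeded the mean of 1.95 among the 844 genes within 10% of its coding length. Its 3' UTR was 14 bp (percentile 0.359 of annotated 3' UTRs).

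**Figure D2:**
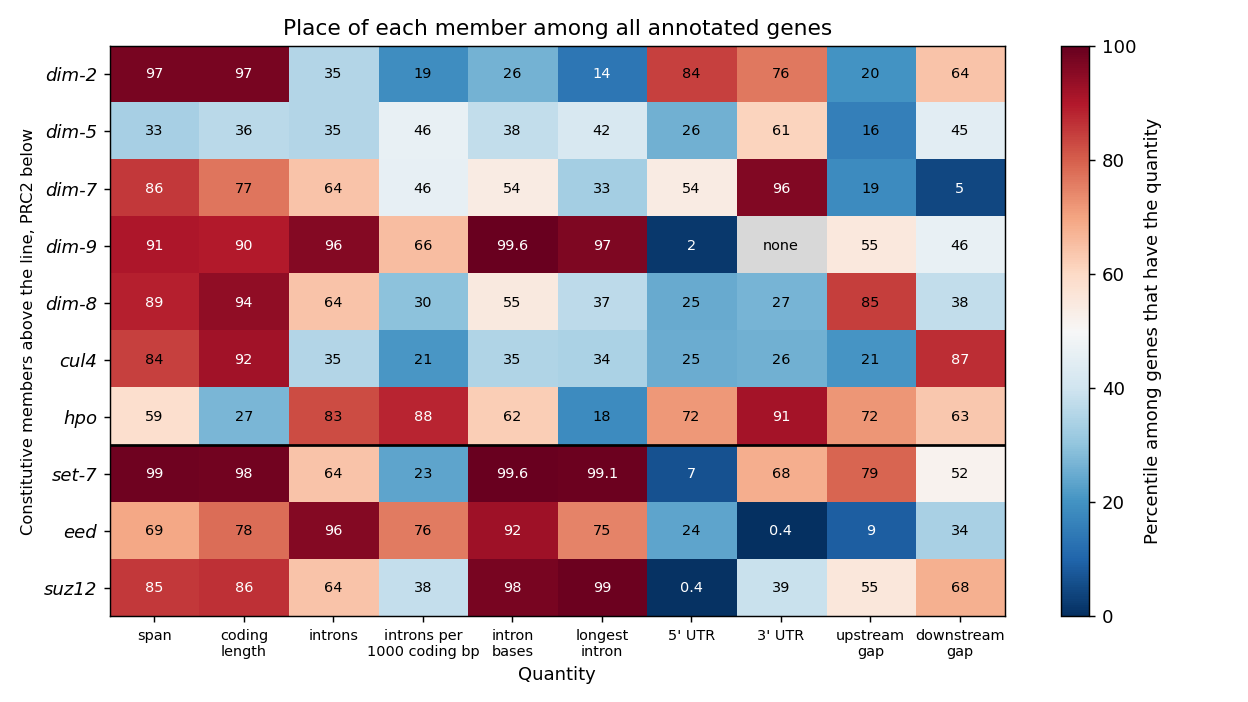
Percentile of each gene (rows, constitutive above the line and PRC2 below it) among all annotated genes that have the quantity (columns), printed in each cell; "none" marks the missing 3' UTR of dim-9. Coding length is above percentile 75 in 8 of 10 genes, whereas introns per 1000 coding bp are spread from percentile 19.1 to percentile 87.9.

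Set side by side, the long introns were confined to 3 of the genes. The median of the 24 introns was 84.5 bp, with quartiles at 68 and 205 bp, against 75 bp over all genes, with quartiles at 62 and 112 bp. Lengths of 300 bp or more occurred in 6 of the 24, against 5.42% of all introns, and lengths of 500 bp or more in 4 of the 24, against 1.70%. These 6 long introns belonged to 3 genes, with 3 in dim-9, 2 in set-7 and 1 in suz12. A coding intron of 300 bp or more was present in 7.17% of all genes, and 2 or more such introns in 0.658%. In the other 7 genes the introns ran from 58 to 166 bp. Introns took up 20.1% of the span of set-7, 18.9% of eed and 22.6% of suz12, although eed had no intron over 166 bp. In the constitutive genes other than dim-9 the share was 1.13% to 7.72%. Over all genes the median share was 6.01%, with an upper quartile of 12.9%. The PRC2 and constitutive groups overlapped because of dim-9, and with 3 and 7 genes chosen by name the difference was not tested.

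**Figure D3:**
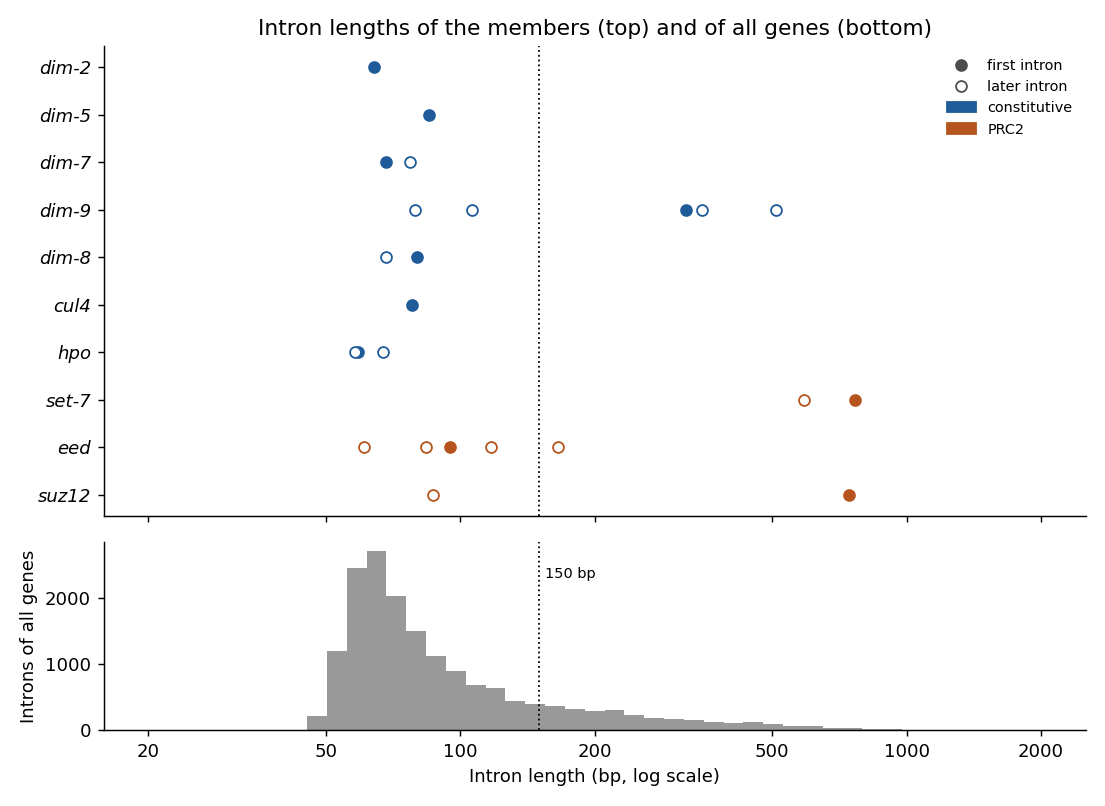
Length of each intron in bp on a log axis for the 10 genes (top, filled for first introns and open for later ones) and the number of introns of all genes by length (bottom); the dotted line marks 150 bp. Most points lie in the main body of the distribution, and the 6 beyond 300 bp belong to dim-9, set-7 and suz12.

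All 24 introns lay within the coding region, where 91.4% of all introns lay; an intron in the 5' UTR occurred in 0 of 10 members, against 10.4% of genes, and one in the 3' UTR in 0 of 10, against 2.88%. The first intron came within the first 100 coding bp in 4 of 10 members, namely dim-9 (11 bp), dim-5 (48 bp), suz12 (88 bp) and dim-8 (95 bp), against 29.8% of genes with a coding intron. By reading frame, 15 of the 24 fell between codons (phase 0), 3 after the first base of a codon and 6 after the second. Over all coding introns the shares were 38.8%, 34.3% and 26.97%. Among eed's introns 4 of 5 were of phase 0, and both of set-7's were. Introns of 1 gene share their source, and the shares were not tested.

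The UTRs set where the annotated start lies relative to the coding region. A 5' UTR was annotated in 10 of 10 members, against 78.7% of all genes, and a 3' UTR in 9 of 10, against 80.1%. Both UTRs were present in 9 of 10, against 75.7%, and 0 of 10 lacked both, against 16.9%. The 5' UTRs had a median of 177.5 bp, with 7 of the 10 below the median of 320 bp over annotated genes. They fell into 3 ranges: 507 and 688 bp in hpo and dim-2, 171 to 346 bp in eed, dim-8, cul4, dim-5 and dim-7, and 6 to 72 bp in suz12, dim-9 and set-7. The last 3 were shorter than 150 bp, about the DNA of a nucleosome core; among genes with a 5' UTR this held for 19.1%. These 3 are the same genes that carry the introns of 300 bp or more. The share of all genes with both traits was not counted, and a link between them was not tested. Under 50 bp there were 2, in suz12 and dim-9, against 3.84%. None of the members had a 5' UTR over 1000 bp (0 of 10, against 4.69%). The 9 annotated 3' UTRs had a median of 423 bp, against 350 bp. No transcript data were used, so whether a short UTR is a true end or an unfinished model was not tested.

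Before the starts, the room was uneven. The gap to the nearest gene upstream had a median of 598.5 bp, against 781 bp over all genes, and 5 of the 10 lay above the median of all genes. The 1000 bp before the start held no other gene in 3 of the 10, dim-8, hpo and set-7, against 42.4% of all genes. Over 500 bp the count was 5, against 62.8%, and over 200 bp it was 9, against 86.6%. None of the starts lay inside another gene (0 of 10, against 2.91%).

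The upstream neighbour was divergent, so that the 2 starts face each other, for 5 of 10 members, against 55.2% of all genes. For dim-8 this was NCU06604 at 2661 bp, for set-7 NCU07495 at 2088 bp, for hpo NCU04018 at 1615 bp, for suz12 NCU05462 at 938 bp and for dim-7 NCU04153 at 248 bp. The median of these 5 gaps was 1615 bp, against 758 bp for divergent gaps over all genes. For the other 5 members the upstream gene lay on the same strand. There eed followed NCU05301 by 149 bp, dim-5 NCU10110 by 221 bp, dim-2 NCU02248 by 264 bp, cul4 NCU00273 by 269 bp and dim-9 NCU01655 by 928 bp. Their median of 264 bp compares with 821 bp for tandem gaps over all genes, and 4 of the 5 were below the lower quartile of 354 bp. The 5 divergent and 5 tandem gaps overlapped, since dim-7 had a short divergent gap and dim-9 a long tandem one. NCU06604, before dim-8, and NCU02248, before dim-2, had no annotated UTR, so those gaps were measured to models without UTRs.

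Gaps between coding spans hold the UTRs as well and do not depend on their annotation. Measured in this way, the upstream gap of the members had a median of 1014.5 bp, against 1476 bp over all genes, and 3 of the 10 lay above the median of all genes. Each member kept the same upstream neighbour. The shortest of these gaps was 543 bp before eed and the longest 2838 bp before dim-8.

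Downstream, the neighbour converged on the member in 6 of 10 cases, against 55.2% of all genes. The gap on this side had a median of 458 bp, against 477 bp over all genes, and ran from an overlap of 690 bp behind dim-7 to a gap of 2344 bp between cul4 and NCU00271. By orientation, the 6 convergent gaps had a median of 441.5 bp, against 169 bp for convergent gaps over all genes, and the 4 tandem ones 620.5 bp, against 821 bp. Behind eed, whose own 3' UTR was only 14 bp, NCU16889 converged at 196 bp. Neither NCU16889 nor NCU00271 had an annotated UTR, so both gaps were measured to models without UTRs. The other convergent gaps were NCU07497 at 515 bp from set-7, NCU05459 at 989 bp from suz12 and NCU16819 at 368 bp from dim-5. On the same strand, NCU06606 followed dim-8 by 256 bp and NCU01657 followed dim-9 by 401 bp. The model of dim-9 has no annotated 3' UTR, so its gap was measured from the stop codon. NCU17116, without an annotated 5' UTR, followed hpo by 840 bp, and NCU02246 followed dim-2 by 868 bp.

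An overlap with another gene was found for 1 of 10 members, dim-7, against 22.8% of all genes. The long 3' UTR of dim-7 ran into the convergent gene NCU04151, from 5011283 to 5011972 on sequence 5. The 690 bp shared were 57.5% of that UTR and held 0 coding bp of dim-7 but 491 of the 837 coding bp of NCU04151. Between coding spans the 2 genes lay 712 bp apart; overlapping coding spans occurred in 0 of 10 members and in 0.0617% of all genes.

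**Figure D4:**
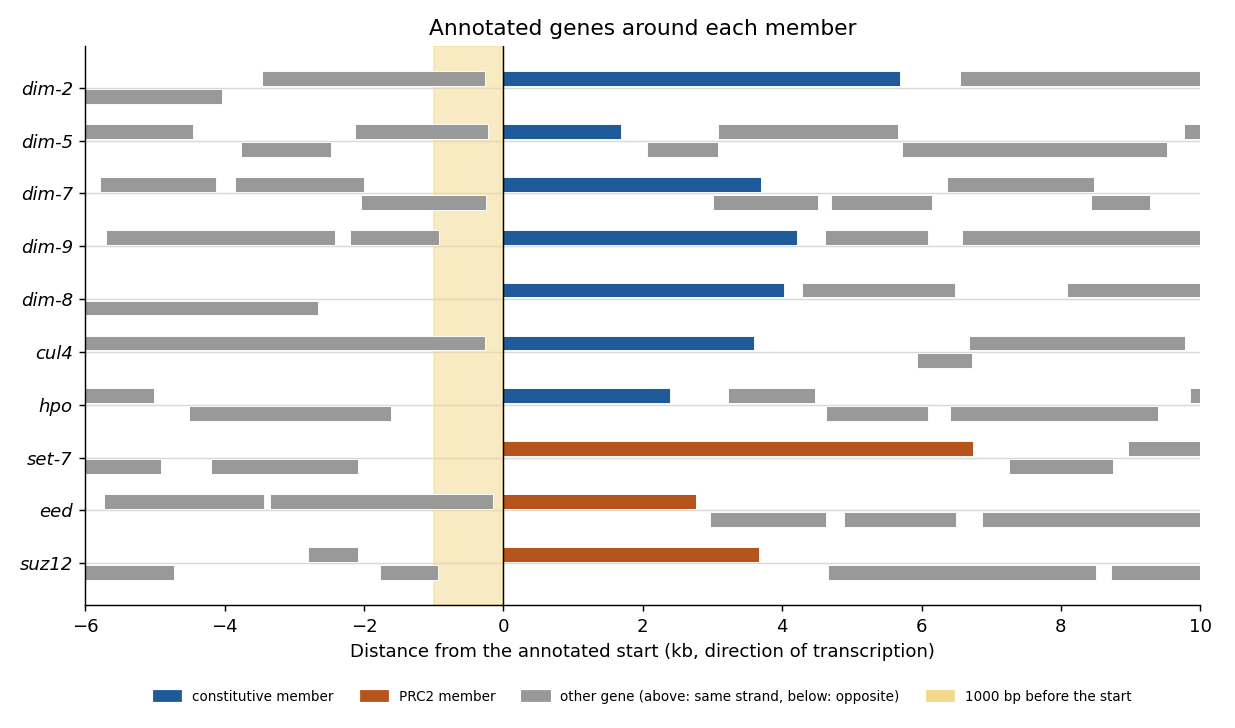
Annotated genes from 6 kb before to 10 kb after the start of each member, in kb along its direction of transcription; coloured bars are the members, grey bars above and below the line are genes on the same and the opposite strand, and the yellow band is the 1000 bp before the start. The band holds no other gene for dim-8, hpo and set-7, and the overlap of dim-7 with its downstream neighbour is visible at its end.

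The 10 genes were scattered over all 7 sequences. Sequence 4 held 3 of them (dim-8, dim-5 and eed), sequence 2 held 2 (suz12 and dim-9) and each other sequence held 1, while sequence 4 carried 15.3% of all genes, sequence 2 10.6% and sequence 1, the largest, 24.1%. The closest pair, suz12 and dim-9, lay 1115550 bp apart with 282 genes between them, so no 2 members were neighbours. None lay within 100 kb of the outermost gene of its sequence (0 of 10, against 4.04% of all genes); set-7 came closest, at 407373 bp.

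Long stretches without genes were also at a distance. None of the members lay within 20 kb of a gene-free interval over 10 kb (0 of 10, against 23.5% of all genes). The distance to the nearest such interval had a median of 105542 bp, against 57003.5 bp over all genes, and 8 of the 10 lay above the median of all genes. The nearest was 40420 bp from suz12 and the farthest 355802 bp from cul4. Within 20 kb on either side the members had 8 (cul4) to 18 (dim-5) other genes. No value over all genes was set beside this count, so it does not place the members by gene density. Whether the gene-free intervals carry the marks that these proteins make was not analysed here.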

How the data were processed

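The deposited file used here is a GTF annotation of N. crassa with 81022 records and 0 scores. It comes from gene calls labelled NC12, per the file's source field. Its deposited values are of another kind than library measurements, namely the start and end position of every record, in bp from 1. The file name says that the authors fixed the file, and the nature of that fix is not stated. The submitters' processing notes name CASAVA and Bowtie2 and the builds sacCer3, R64 and ASM294v2, with no N. crassa build among them, so coordinates are those of the annotation.

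Each gene was represented by its transcript with most exonic bases. Coding length leaves out the stop codon, as the CDS records do. UTR lengths are exonic bases. Gaps run from the span of all transcripts of a gene to the nearest gene on either strand and are below 0 where spans overlap. A percentile is the share of genes below a value, with ties counted at their midpoint. Genes within 10% of a coding length lie between that length divided by and multiplied by 1.1.

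The members, lists and classes were chosen with earlier results of these data known; the classes of first coding pieces, of introns by phase, of 2 or more long introns, of 2000 bp and of UTRs under 50 bp were added after the models had been seen. Genes named are the 10 members, their nearest neighbours and overlapping genes. A list of 14 symbols of other pathway genes was not used, because 0 N. crassa identifiers occur in the reference tables. No sequence is printed. Genes are not replicates, and no test was made. Calculations used Python 3.11.15, NumPy 2.4.6 and matplotlib 3.10.9, and were tested on simulated data.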

Additional observations from a re-analysis of the deposited data

How the results depend on the processing

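No paired analysis was possible because the deposited annotation belongs to no library and no test was made. Over 9 results, 23 other ways of measuring were tried, and 18 gave a value within the margin, which was 1 SD over the members for medians and means and 1.5 times for counts; since members are not replicates, that SD is wide. The 5 others concern counts. The members with 1000 bp free of other genes before their start numbered 3. The count was 5 over 500 bp and 9 over 200 bp. It was 5 where genes of the other strand were ignored and 5 between coding spans. Over all genes the shares in the same order were 42.4%, 62.8%, 86.6%, 73.6% and 70.8%. The 1 overlapping member became 0 between coding spans. The median upstream gap of 598.5 bp was 269 bp in the 7 constitutive members alone, 1014.5 bp between coding spans and 1467.5 bp to same-strand neighbours (over all genes 1476 and 2857.5 bp), all within 1 SD of 898 bp but beyond 1.5 times. Of the 18, 8 repeated the value exactly and could not have moved, because each member has 1 transcript and every intron of the members is within the coding region; these say nothing of stability. An annotation has no depth; missing or unfinished UTRs limit the UTR lengths and the gaps between transcript spans.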

Other observations

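The fission yeast S. pombe, the third fungus of the design, has the lysine 9 pathway without DNA methylation and without PRC2, and its RefSeq annotation (ASM294v3, a later version than the ASM294v2 of the processing notes) names counterparts of 4 members. This comparison was chosen after the N. crassa models had been seen. The 4 N. crassa genes had 1 to 3 coding introns each, and the 4 S. pombe genes had 0. Over the whole annotations, 7564 of 9730 N. crassa genes had a coding intron. In S. pombe, coding introns were absent from 53.4% of the 5124 protein-coding genes. For the lysine 9 methyltransferases, dim-5 encoded 331 residues and clr4 490. The HP1 proteins had 266 residues in hpo and 328 in swi6. The cullins had 1039 residues in N. crassa cul4 and 734 in S. pombe cul4. The DDB1 proteins had 1158 residues in dim-8 and 1072 in ddb1; in S. pombe the complex around Clr4 uses Rik1, a relative of DDB1, in its place. The order of these lengths, with the HP1 gene shortest and the DDB1 gene longest, was the same in both species. Rik1 itself was not measured, so the order does not cover the Clr4 complex as it is in S. pombe. The pairing of genes is by textbook knowledge of their products and was not tested on sequence.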
